A study of Homo sapiens with 18 samples.

Results

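The 35 genes described here act in homologous recombination, in the Fanconi anaemia pathway and in mismatch repair, and they were followed in LNCaP, an androgen-sensitive human line derived from a prostate tumour. They were chosen by name as parts of these pathways, and each was read from 1 row of the count table, the transcript of the gene with the highest total count. They are 35 of 28100 genes in the table, and all 35 passed the filter on low counts that kept 17037 genes. The 18 libraries of polyadenylated RNA fall into 6 groups of 3, all from wild-type LNCaP cells harvested after 48 h. The cells received M1 medium with the NF-kB inhibitor IKK16 at 0.7 µmol/l, M1 medium with the solvent DMSO, M1 medium alone, M2 medium, M0 medium, or plain RPMI as control. M0, M1 and M2 media were conditioned by unpolarised, M1-polarised or M2-polarised macrophages made from THP-1, a monocytic leukaemia line, and were diluted at a ratio of 1 to 4, and all media contained heat-inactivated serum. Replicates are numbered, and nothing says that they came from separate cultures, so p-values measure only the spread between these libraries, which may be technical. LNCaP is 1 line, and no other line was used in these groups.

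Homologous recombination copies the lost sequence of a broken DNA molecule from the sister chromatid, which exists only after replication, so it works in S and G2 phase. The MRE11, RAD50 and NBN complex finds the break, ATM and ATR signal it, and nucleases trim the ends. BRCA1 with BARD1 then directs PALB2 and BRCA2 to the trimmed ends, where the search for the intact copy starts. The Fanconi core complex attaches ubiquitin to FANCD2 and FANCI where an interstrand crosslink stalls a replication fork, and mismatch repair corrects errors left by the polymerase. Many of these genes are transcribed periodically, through E2F factors and the DREAM repressor complex, and others are transcribed at all phases. By textbook knowledge the members were split into 17 periodic genes, whose mRNA is known to peak around the start of S phase, and 18 non-periodic genes. Earlier results of these data were known when the split was made, so contrasts between the classes are a description. Both are set beside a list of 39 genes of DNA replication (the S phase list) and 30 mitotic genes (the G2/M list), none of them a member.

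E2F factors bind close to transcription starts, so the promoters of members at both ends of the range of change are shown. The stretches below are the 100 bases just before the first RefSeq start of each gene, outside the transcript, in the assembly GRCh38.p14 and on the strand of the gene, from 5′ to 3′. Capitals mark a 7-letter form of the E2F site (TTCGCGC or TTGGCGC or TTCCCGC or TTGCCGC, on either strand). The first 4 genes fell most in M1 medium among the periodic members with such a form, and the last 3 genes rose in M1 medium and have none in these bases. They were picked by both form and change and are examples, from which no link between form and change can be read: BRIP1, EXO1 and CHEK1 fell by more than FANCG and have no such form in the bases searched.
BLM, chr15:90717246-90717345, plus strand: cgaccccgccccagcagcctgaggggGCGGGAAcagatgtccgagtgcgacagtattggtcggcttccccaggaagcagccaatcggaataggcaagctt
RAD51AP1, chr12:4538790-4538889, plus strand: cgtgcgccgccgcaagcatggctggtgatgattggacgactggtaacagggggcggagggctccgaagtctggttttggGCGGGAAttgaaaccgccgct
RAD54L, chr1:46247588-46247687, plus strand: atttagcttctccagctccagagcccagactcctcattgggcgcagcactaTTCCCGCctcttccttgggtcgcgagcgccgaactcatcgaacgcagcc
FANCG, chr9:35079943-35080042, minus strand: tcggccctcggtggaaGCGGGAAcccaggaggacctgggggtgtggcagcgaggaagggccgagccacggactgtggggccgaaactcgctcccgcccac
BARD1, chr2:214809684-214809783, minus strand: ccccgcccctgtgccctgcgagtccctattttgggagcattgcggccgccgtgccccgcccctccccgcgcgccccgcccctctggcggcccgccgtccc
ATM, chr11:108222967-108223066, plus strand: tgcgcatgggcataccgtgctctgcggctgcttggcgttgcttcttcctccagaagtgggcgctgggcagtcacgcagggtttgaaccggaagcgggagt
ATR, chr3:142578734-142578833, minus strand: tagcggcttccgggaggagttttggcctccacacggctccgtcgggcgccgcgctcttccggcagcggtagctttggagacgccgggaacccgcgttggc
The 7-letter form was found in the 250 bases before the start in 10 of 23 windows of periodic members (43.478%) and in 6 of 24 windows of non-periodic members (25%), against 10.885% of all 35114 windows. Some genes have several starts and hence several windows, and these overlap. By gene, 7 of 15 periodic and 4 of 17 non-periodic members had the form, and FANCI, RAD54B and NBN had no window. The form was chosen after the promoters had been read. The longer 8-letter form that contains it (TTTCGCGC or TTTGGCGC or TTTCCCGC or TTTGCCGC) lay in 1 periodic window, that of FANCA, in 3 non-periodic windows, of FANCC and PMS2, and in 2.788% of all windows. The CHR element TTTGAA, which the DREAM complex binds, was in 4.348% of periodic, 8.333% of non-periodic and 13.319% of all windows. The CCAAT box, bound by NF-Y, was in 47.826%, 41.667% and 32.01% of the same windows, and the NRF1 core CGCATGCG in 0%, 4.167% and 1.732%. Some of these motifs overlap each other, and a match is a run of letters, not a shown binding site.

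Gene counts summed to 24202741.5 to 33814818 per library. The labels were checked on 8 NF-kB target genes, all 8 of which rose in M1 medium. With IKK16 in M1 medium 5 of the 8 fell and 1 rose. Of 8 LNCaP markers, 7 fell in M1 medium and FOLH1 rose, and their summed level was 1767 to 1820 CPM (the counts of a gene divided by the library total and scaled to a common library size) in M1 medium, against 7721 to 8094 CPM in control medium. Of 12 macrophage markers, 6 passed the filter, and 4 of these rose and 2 fell in M1 medium. Their summed level was 256 to 273 CPM in M1 medium with IKK16, 241 to 255 CPM with DMSO, 247 to 267 CPM in M1 medium, 245 to 268 CPM in M2 medium, 234 to 271 CPM in M0 medium and 228 to 233 CPM in control medium. Most of it was CSF1R in every group. PTPRC, CD14, CD163, MRC1 and AIF1 stood at or below 0.141 CPM on average in every group, and TYROBP had no count in any library, which allows up to 0.0887 to 0.124 CPM. ITGAM averaged 20 CPM in M1 medium, against 0.149 CPM in control medium. The part of these markers in the changes of the repair genes was not tested.

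M1 medium was set against control medium to ask which repair genes change under the secreted products of inflammatory macrophages. The repair genes fell in the main: of 35 members, 27 fell, 3 rose and 5 did not pass the test. Among all 17037 genes tested, 31.9% fell and 32.9% rose in the same comparison. BLM and RAD51AP1 fell furthest, and BARD1, ATM and ATR rose. In bulk RNA of this kind, fewer cells in a phase and less RNA per cell cannot be told apart.

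The 17 periodic members had the larger falls at the median, a difference between the classes that was not tested. The split was made with earlier results of these data known. Of the 17 periodic members 16 fell and only BARD1 rose, with a median log2 fold change of -1.56. Of the 18 non-periodic members 11 fell, ATM and ATR rose and 5 did not pass the test, with a median of -0.41. The median over all genes tested was -0.001. On the lists beside them, all 39 S phase genes fell (median -1.27) and all 30 mitotic genes fell (median -2.09). The classes overlap in size of change: XRCC3, CHEK2, FANCE, RAD51C, FANCC, RBBP8, RAD51D and FANCM, counted as non-periodic, fell by more than the periodic MSH6.

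**Figure D1:**
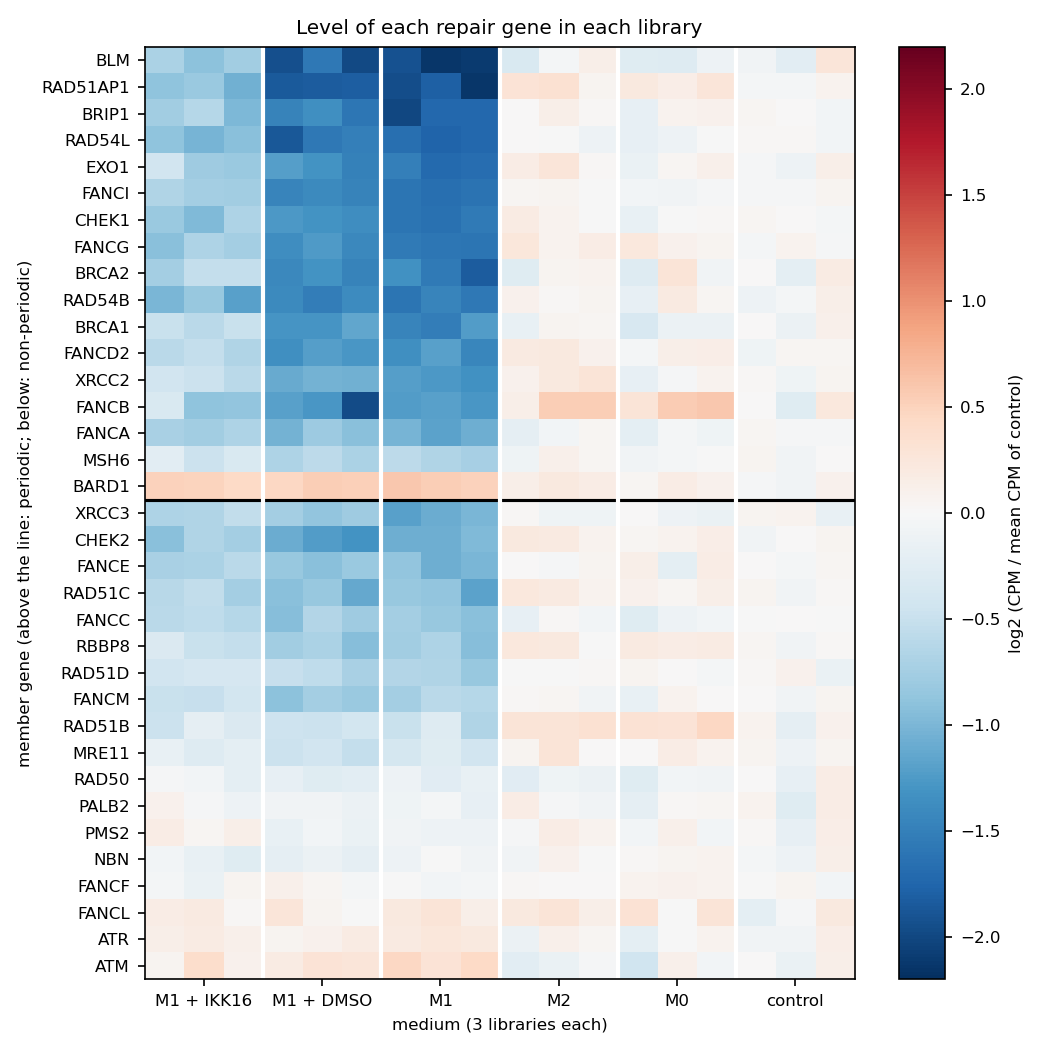
Level of each member in each library, as the log2 ratio of its CPM to the mean of the 3 control libraries; columns are the 6 groups with 3 libraries each, and rows are the periodic members above the line and the non-periodic members below it. The 3 groups with M1 medium are blue for most periodic members, BARD1 is red in the same libraries, and the M2 and M0 columns stay pale.

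Among the kinases that signal breaks and stalled forks, the upstream kinases rose and the downstream kinases fell. ATM, which responds to double-strand breaks, had 40.1, 35.7 and 39.3 CPM in M1 medium, against 29.4, 26.2 and 31.7 CPM in control medium. The groups did not overlap, and ATM rose by 0.40 ± 0.10 on the log2 scale (edgeR adjusted p = 0.00197). ATR, which responds to single-stranded DNA at forks, had 63.5, 65.5 and 64.3 CPM in M1 medium, against 52.4, 52.2 and 61.2 CPM in control medium, a rise of 0.22 ± 0.07 on the log2 scale (edgeR adjusted p = 0.0127). The 3 M1 libraries were close together and above all 3 control libraries, but the call of ATR was lost without control replicate 1 (edgeR adjusted p = 0.0733) or without control replicate 2 (0.0562). CHEK1, the kinase that ATR activates, had 17.5, 17 and 18.1 CPM in M1 medium, against 54.5, 53.2 and 51.4 CPM in control medium. It fell by 1.60 ± 0.07 on the log2 scale (edgeR adjusted p = 5.57e-15), with a wide gap between the groups. CHEK2, the kinase that ATM activates, had 18.5, 18.6 and 19.8 CPM in M1 medium, against 36.7, 39.4 and 40.8 CPM in control medium, a fall of 1.04 ± 0.07 on the log2 scale (edgeR adjusted p = 1.46e-11). CHEK2 is non-periodic, and its fall lay beside that of the long transcript of the periodic FANCA (-1.08 ± 0.07). A shorter transcript of FANCA, described below, fell further.

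The complex that finds breaks changed little. MRE11, its nuclease, had 20.9, 22.8 and 20.4 CPM in M1 medium, against 28.5, 25.2 and 28.4 CPM in control medium, and fell by 0.36 ± 0.08 on the log2 scale (edgeR adjusted p = 0.000295). RAD50, the tether of the complex, had 65, 58.8 and 62.3 CPM in M1 medium, against 70.1, 61.9 and 78.2 CPM in control medium. These groups overlap, the call was narrow (-0.18 ± 0.08 on the log2 scale, edgeR adjusted p = 0.0445), and it was lost without control replicate 3 (edgeR adjusted p = 0.32), where the value was -0.09. It was also lost without control replicate 1, M1 replicate 2 or M1 replicate 3. NBN, the subunit that recruits ATM, did not pass the test at -0.07 ± 0.06 on the log2 scale (edgeR adjusted p = 0.371).

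The enzymes that trim the ends fell. RBBP8, which starts resection with MRE11, had 26.6, 28.3 and 23.5 CPM in M1 medium, against 46.5, 43 and 46 CPM in control medium (-0.79 ± 0.08 on the log2 scale, edgeR adjusted p = 8.30e-09). EXO1, an exonuclease that extends resection and also serves mismatch repair, had 8.48, 7.36 and 7.58 CPM in M1 medium, against 23.8, 22.3 and 26.3 CPM in control medium. Its fall was 1.63 ± 0.11 on the log2 scale (edgeR adjusted p = 4.98e-12). BLM, a helicase that extends resection and later dissolves joined molecules, had 3.48, 2.96 and 3.04 CPM in M1 medium, against 12.5, 11.1 and 15.8 CPM in control medium. It was 4.15-fold lower, the deepest fall among the members (-2.05 ± 0.14 on the log2 scale, edgeR adjusted p = 1.22e-11), and its M1 libraries lay far below every control library. Its promoter is the first one shown above, with 1 match to the 7-letter E2F form.

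The BRCA1 branch split in opposite directions. BRCA1, a ubiquitin ligase that favours recombination, had 19.9, 18.9 and 23.3 CPM in M1 medium, against 54.9, 49.6 and 58.6 CPM in control medium, and fell by 1.39 ± 0.09 on the log2 scale (edgeR adjusted p = 1.48e-12). BARD1, its obligate partner in that ligase, had 172, 166 and 162 CPM in M1 medium, against 113, 109 and 121 CPM in control medium. It rose by 0.55 ± 0.05 on the log2 scale (edgeR adjusted p = 2.61e-09), with all M1 libraries above all control libraries. BARD1 was the one periodic member that rose. BRCA2, which prepares the trimmed ends for strand exchange, had 4.94, 4.22 and 3.50 CPM in M1 medium, against 12.5, 10.7 and 14 CPM in control medium, and fell by 1.56 ± 0.15 on the log2 scale (edgeR adjusted p = 2.73e-09). PALB2, the bridge between BRCA1 and BRCA2, had 13.5, 14.1 and 12.9 CPM in M1 medium, against 15.2, 12 and 16.3 CPM in control medium. Its groups overlapped and it did not pass the test (-0.11 ± 0.10 on the log2 scale, edgeR adjusted p = 0.351). BRIP1, a helicase bound to BRCA1, had 5.44, 6.61 and 6.60 CPM in M1 medium, against 22.5, 21.9 and 21 CPM in control medium, and was 3.50-fold lower (-1.81 ± 0.10 on the log2 scale, edgeR adjusted p = 2.24e-13).

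The genes that act in strand invasion and exchange all fell. RAD51AP1, which stimulates strand invasion, had 9.49, 10.6 and 8.36 CPM in M1 medium, against 35.9, 35.7 and 38.9 CPM in control medium, a 3.89-fold lower level (-1.96 ± 0.09 on the log2 scale, edgeR adjusted p = 3.12e-15). RAD54L, a motor protein that drives strand exchange, had 15.8, 14.8 and 15.1 CPM in M1 medium, against 51, 51.1 and 47.8 CPM in control medium (-1.71 ± 0.08 on the log2 scale, edgeR adjusted p = 2.31e-15). In both genes the 3 M1 libraries lay together, far below the control libraries. The related RAD54B had 10.5, 11.7 and 10.8 CPM in M1 medium, against 29.7, 31.2 and 35.2 CPM in control medium, a fall of 1.55 ± 0.10 on the log2 scale. Of 5 related genes that assist strand exchange, XRCC2 (-1.26 ± 0.09), XRCC3 (-1.10 ± 0.07) and RAD51C (-0.95 ± 0.08) fell by more on the log2 scale than RAD51D (-0.71 ± 0.08) and RAD51B (-0.47 ± 0.10). RAD51B had 8.61, 10.0 and 7.71 CPM in M1 medium, against 12.8, 10.7 and 13 CPM in control medium. All 5 of these genes fell, and none of their groups overlapped.

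The Fanconi core complex did not move as a unit. FANCG, a core subunit, had 23.4, 22.7 and 22.5 CPM in M1 medium, against 66.3, 72 and 67.6 CPM in control medium, and was 3-fold lower (-1.58 ± 0.07 on the log2 scale, edgeR adjusted p = 2.20e-15). FANCA, FANCB, FANCC, FANCE and FANCM, the last of which is the translocase that brings the core to DNA, also fell, by 1.08 ± 0.07, 1.24 ± 0.19, 0.83 ± 0.07, 0.98 ± 0.09 and 0.66 ± 0.08 on the log2 scale. FANCL, the subunit that carries the ubiquitin ligase activity, had 17.2, 18.1 and 16.2 CPM in M1 medium, against 12.8, 14.5 and 17.2 CPM in control medium, and did not pass the test (0.21 ± 0.10 on the log2 scale, edgeR adjusted p = 0.0777). FANCF, an adaptor of the core, had 37.1, 35.8 and 36.4 CPM in M1 medium, against 37.1, 39.1 and 36.1 CPM in control medium (-0.04 ± 0.06 on the log2 scale, edgeR adjusted p = 0.592). So 6 of the 8 core genes fell, beside 31.9% of all genes. Both that did not pass the test are non-periodic, but so are FANCC, FANCE and FANCM, which fell. The substrates of the core fell together. FANCI had 63.5, 61.5 and 62.7 CPM in M1 medium, against 190.0, 189 and 201 CPM in control medium, and fell by 1.63 ± 0.05 on the log2 scale (edgeR adjusted p = 6.50e-19). FANCD2 had 36.5, 40.7 and 34.4 CPM in M1 medium, against 87.5, 96.5 and 96 CPM in control medium, and fell by 1.33 ± 0.07 on the log2 scale (edgeR adjusted p = 4.81e-14).

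Of MSH6 and PMS2, which act in mismatch repair, only MSH6 fell. EXO1, which also serves mismatch repair, fell as given above. MSH6, which recognises single mispaired bases, had 35.7, 33.9 and 32.3 CPM in M1 medium, against 55.5, 50.4 and 53.8 CPM in control medium. It fell by 0.65 ± 0.07 on the log2 scale (edgeR adjusted p = 1.63e-08), the smallest fall among the periodic members. PMS2, the endonuclease that nicks the new strand, had 41.6, 40.7 and 40.4 CPM in M1 medium, against 44.5, 38.6 and 48.2 CPM in control medium. Its groups overlapped and it did not pass the test (-0.10 ± 0.07 on the log2 scale, edgeR adjusted p = 0.246).

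The S phase list fell by a median of 1.27 on the log2 scale in the same libraries, so each member was also tested against that list, by adding the mean log CPM of the list in each library to the offset of the same edgeR model. A value of 0 then means that the gene changed as the S phase list did, and the uncertainty of the list itself is not included. Of all genes tested, 90.9% were higher and 3.05% lower than the list in M1 against control medium, and the median gene stood 1.35 above it on the log2 scale. Of the periodic members 8 of 17 were lower than the list, 6 did not pass the test and 3 were higher. All 18 non-periodic members were higher, a share near that of all genes.

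BLM fell by 0.70 ± 0.15 more than the S phase list on the log2 scale (edgeR adjusted p = 6.39e-05), RAD51AP1 by 0.61 ± 0.09 (edgeR adjusted p = 5.59e-07), BRIP1 by 0.45 ± 0.11 (edgeR adjusted p = 0.000238) and RAD54L by 0.36 ± 0.08 (edgeR adjusted p = 0.000117). EXO1, FANCI, CHEK1 and FANCG were lower than the list by smaller amounts, with relative log2 values of -0.27 to -0.23. EXO1 was no longer past the threshold without control replicate 3 (edgeR adjusted p = 0.0864), M1 replicate 2 or M1 replicate 3. BRCA1 (-0.04 ± 0.09), FANCD2 (0.03 ± 0.07), XRCC2 (0.09 ± 0.10), FANCB (0.11 ± 0.19), RAD54B (-0.19 ± 0.10) and BRCA2 (-0.20 ± 0.15) did not differ from the list past the threshold on this relative log2 scale. With these SEs, changes somewhat unlike that of the list remain possible for each. FANCA (0.27 ± 0.08), MSH6 (0.70 ± 0.07) and BARD1 (1.90 ± 0.06) were higher than the list on the same scale. The value of FANCA is that of its long transcript, and a shorter transcript, described below, fell further. The non-periodic members closest to the list were XRCC3 (0.26 ± 0.07), CHEK2 (0.32 ± 0.07), FANCE (0.37 ± 0.09) and RAD51C (0.40 ± 0.09), and the farthest were ATM (1.75 ± 0.11), ATR (1.58 ± 0.08) and FANCL (1.56 ± 0.10).

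These relative values depend on the list. With the G2/M list, which fell further, in place of the S phase list, 33 members were higher and none lower. BRIP1, CHEK1, EXO1, FANCG, FANCI, RAD51AP1 and RAD54L then turned to relative log2 values of 0.07 to 0.45, and BLM stood at -0.02. The direction of a relative value thus holds for the mean of the list it is set against, not for each gene of that list.

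**Figure D2:**
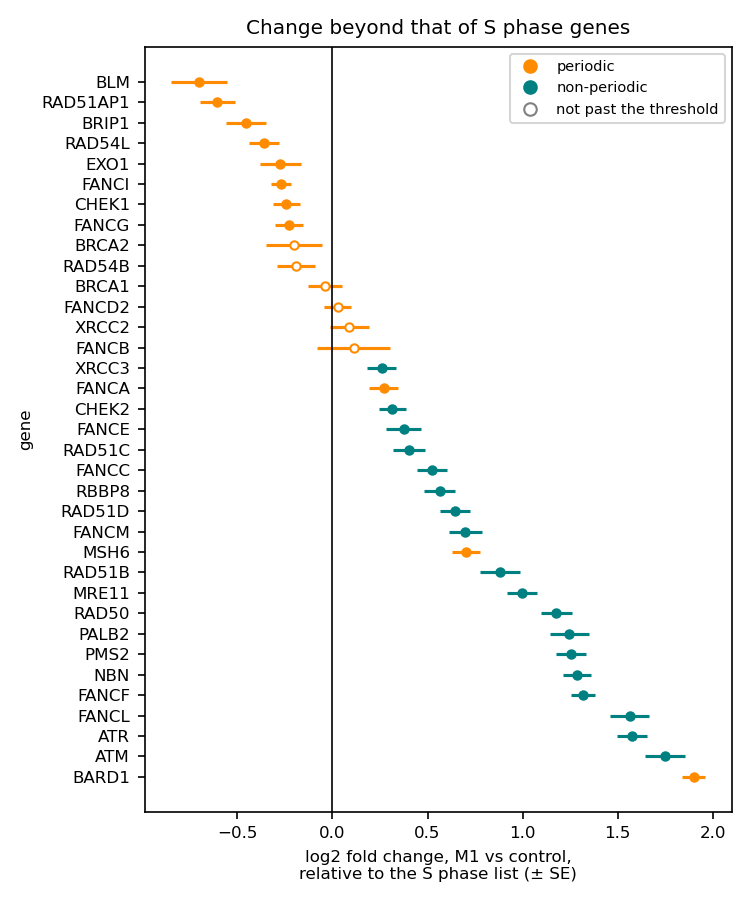
Log2 fold change of each member in M1 against control medium relative to the S phase list (x axis, with SE as bars), sorted; filled points passed the adjusted p of 0.05. BLM, RAD51AP1, BRIP1 and RAD54L stand at the negative end, BARD1 at 1.90 stands at the positive end beside ATM and ATR, and all non-periodic members are above 0.

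IKK16 was added to M1 medium, with DMSO as its solvent control, to ask which of these genes differ when IκB kinases are inhibited. No group received IKK16 without M1 medium. An effect of the inhibitor itself therefore cannot be told apart from a reversal of the change in M1 medium. Most members that M1 medium had lowered were higher with the inhibitor. With IKK16 21 members rose and none fell, beside 14.4% of all genes that rose and 12.9% that fell (edgeR). At an unadjusted p under 0.05 in edgeR 25 members were higher and 0 lower, and DESeq2 called 0 lower. The share of all genes at an unadjusted p was not counted, here or below. Such member counts therefore cannot be set against the shares given, which are at adjusted p. By class 15 of 17 periodic members rose (median 0.67 on the log2 scale) and 6 of 18 non-periodic members rose (median 0.18). The S phase list rose in 36 of 39 genes (median 0.48) and the G2/M list in 30 of 30 (median 0.90), and the median over all genes was 0.01. The 15 periodic members that rose with IKK16 were all among the 16 that fell in M1 medium, and FANCA was the other. Of the 11 non-periodic members that fell in M1 medium, RAD51C, RBBP8, MRE11, CHEK2 and FANCM rose with IKK16, and PMS2 rose without having fallen.

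FANCI had 121, 115 and 114 CPM with IKK16, against 70.8, 73.2 and 69.6 CPM with DMSO, a rise of 0.71 ± 0.05 on the log2 scale (edgeR adjusted p = 6.52e-11). RAD51AP1 had 19.8, 21 and 17.8 CPM with IKK16, against 10.3, 10.4 and 10.5 CPM with DMSO (0.91 ± 0.09 on the log2 scale, edgeR adjusted p = 8.92e-08). FANCD2 had 61.9, 64.9 and 58.8 CPM with IKK16, against 36.4, 40.3 and 38.3 CPM with DMSO (0.69 ± 0.07 on the log2 scale, edgeR adjusted p = 9.10e-08). In each of the 3 genes all IKK16 libraries lay above all DMSO libraries. RAD54L had 27, 24.7 and 26.4 CPM with IKK16, against 13.8, 16.8 and 17.6 CPM with DMSO (0.69 ± 0.08 on the log2 scale, edgeR adjusted p = 5.13e-07). BRCA1 had 38.7, 36 and 38.6 CPM with IKK16, against 22, 22.1 and 24.5 CPM with DMSO (0.72 ± 0.09 on the log2 scale, edgeR adjusted p = 1.48e-06). FANCG had 36.5, 42.7 and 40.9 CPM with IKK16, against 26.5, 29 and 25.6 CPM with DMSO (0.56 ± 0.07 on the log2 scale, edgeR adjusted p = 2.36e-06). These groups did not overlap either. BLM had 8.09, 7.03 and 7.76 CPM with IKK16, against 3.45, 4.40 and 3.30 CPM with DMSO, and its rise of 1.02 ± 0.15 on the log2 scale was the largest among the members (edgeR adjusted p = 2.31e-05).

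BARD1 did not follow its partner. It had 163, 161 and 155 CPM with IKK16, against 156, 167 and 165 CPM with DMSO, groups that overlap, with a log2 value of -0.03 ± 0.05 (edgeR adjusted p = 0.74). ATM (-0.06 ± 0.11) and ATR (0.03 ± 0.08), the other members that rose in M1 medium, did not pass the test with IKK16 on the log2 scale either. The weakest calls were those of FANCB, MRE11, PMS2 and RAD51C. FANCB rose by 0.76 ± 0.22 on the log2 scale and was lost without DMSO replicate 3 (edgeR adjusted p = 0.0749) or IKK16 replicate 1 (0.0962). RAD51C was lost without DMSO replicate 3 (edgeR adjusted p = 0.0678). MRE11 was lost without DMSO replicate 1 or 3 or IKK16 replicate 1 or 3 (edgeR adjusted p of 0.0515 to 0.0854), and PMS2 without the same libraries (0.0533 to 0.0849).

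Across the 35 members, the log2 fold changes of M1 against control medium and of IKK16 against DMSO had a Pearson correlation of -0.90 and a Spearman correlation of -0.89. Over all 17037 genes the same values were -0.54 and -0.48. These comparisons share no library. The points are genes of the same libraries and are not independent, so the values are a description. Within the periodic members the Pearson correlation was -0.83 and the Spearman correlation -0.59, and within the non-periodic members they were -0.77 and -0.72.

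**Figure D3:**
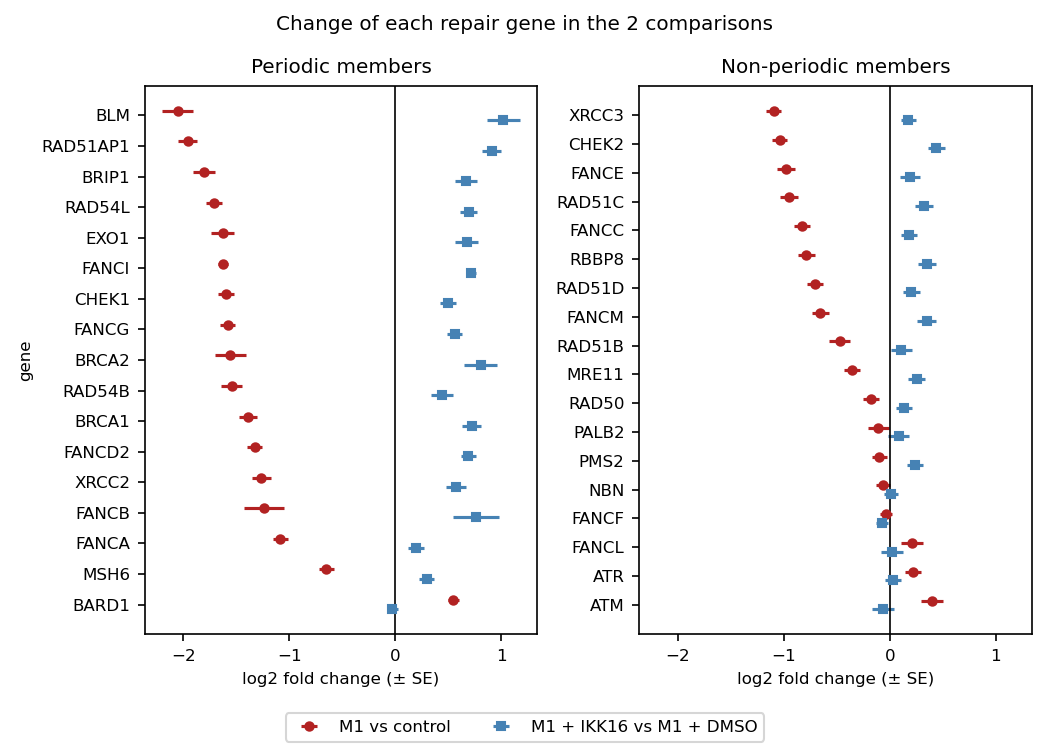
Log2 fold change with its SE (x axis) for each member in M1 against control medium (red circles) and in M1 medium with IKK16 against M1 medium with DMSO (blue squares), for the periodic members on the left and the non-periodic members on the right. BLM and RAD51AP1 have both the deepest falls in M1 medium and the largest rises with IKK16 (-2.05 and 1.02 for BLM), the order of the other members differs between the comparisons, and BARD1, ATM and ATR lie near 0 with IKK16.

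Relative to the S phase list, 6 periodic members rose by more than the list with IKK16, 3 by less and 8 did not pass the test, beside 1.62% of all genes higher than the list and 78.8% lower. The median gene stood at -0.50 relative to the list on the log2 scale. BLM exceeded the list by 0.52 ± 0.15 on the log2 scale (edgeR adjusted p = 0.00332) and RAD51AP1 by 0.41 ± 0.10 (edgeR adjusted p = 0.000406). BRCA1, FANCI, RAD54L and FANCD2 exceeded it by 0.18 to 0.22 on the same scale. Of these, the calls of BRCA1, FANCD2 and RAD54L were each lost without DMSO replicate 1 or IKK16 replicate 1, among other libraries. BARD1 (-0.53 ± 0.06), FANCA (-0.31 ± 0.08) and MSH6 (-0.21 ± 0.08) fell short of the list, as did 14 of the 18 non-periodic members, a share near that of all genes. The value of FANCA is again that of its long transcript. With the G2/M list in place of the S phase list, none was higher and 31 were lower.

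With IKK16 in M1 medium, most members stayed below the control level. In M1 medium with IKK16 against control medium 27 members were still lower and 1, BARD1, was higher, beside 25.4% of all genes that were lower and 27.1% that were higher. This comparison and that of M1 against control medium use the same control libraries. No control medium with DMSO was included, so the parts of M1 medium, IKK16 and its solvent cannot be told apart here. The median was -0.72 on the log2 scale for the periodic members and -0.28 for the non-periodic members. BLM had 8.09, 7.03 and 7.76 CPM in M1 medium with IKK16, against 12.5, 11.1 and 15.8 CPM in control medium (-0.79 ± 0.13 on the log2 scale, edgeR adjusted p = 2.18e-05). RAD54B, the farthest from control, had 16, 18.1 and 14.1 CPM with IKK16, against 29.7, 31.2 and 35.2 CPM in control medium (edgeR adjusted p = 4.41e-09). All 16 periodic members that fell in M1 medium were still lower. NBN was called lower in this comparison alone (-0.16 ± 0.06 on the log2 scale, edgeR adjusted p = 0.0428), a call lost without control replicate 3 (edgeR adjusted p = 0.285), control replicate 1, IKK16 replicate 2 or IKK16 replicate 3. MRE11 was also lost without control replicate 1 or 3 or IKK16 replicate 2 (edgeR adjusted p of 0.0701 to 0.081).

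The solvent itself was compared by setting M1 medium with DMSO against M1 medium. There 3 members rose and none fell, beside 2.23% of all genes that rose and 2.03% that fell. At an unadjusted p under 0.05 in edgeR 7 members were higher and 1 lower with DMSO, and DESeq2 called 0 lower. The shares of all genes just given are at adjusted p and are no measure for these unadjusted counts. CHEK1 had 22.2, 21.4 and 20.7 CPM with DMSO, against 17.5, 17 and 18.1 CPM in M1 medium (0.29 ± 0.08 on the log2 scale, edgeR adjusted p = 0.0378). FANCI (0.19 ± 0.05, edgeR adjusted p = 0.0283) and XRCC3 (0.30 ± 0.07, edgeR adjusted p = 0.0209) were the others, on the log2 scale. Each of the 3 calls was lost without M1 replicate 1 or 2 and without DMSO replicate 1 or 3, and those of CHEK1 and FANCI also without DMSO replicate 2. The S phase list rose in 15 of 39 genes in the same comparison (median 0.19 on the log2 scale). XRCC3, which was not higher with IKK16 than with DMSO past the threshold, had 46.9, 47.7 and 51.8 CPM with IKK16, 44.9, 41.2 and 43.8 CPM with DMSO and 32.9, 35 and 37.3 CPM in M1 medium.

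Few members passed the test in the media of M2 and M0 macrophages. In M2 against control medium 2 members rose and none fell, beside 5.28% of all genes that rose and 3.49% that fell. At an unadjusted p under 0.05 in edgeR 9 members were higher and 0 lower in M2 medium, and DESeq2 called 0 lower. Neither this count nor that for M0 medium below has a share of all genes at an unadjusted p beside it, so no shift of the members can be read from them. BARD1 had 125, 133 and 127 CPM in M2 medium, against 113, 109 and 121 CPM in control medium (0.17 ± 0.05 on the log2 scale, edgeR adjusted p = 0.044). RAD51B had 14.8, 14.8 and 15.4 CPM in M2 medium, against 12.8, 10.7 and 13 CPM in control medium (0.30 ± 0.09 on the log2 scale, edgeR adjusted p = 0.0475). The libraries did not overlap in either gene, but BARD1 was lost without control replicate 1 or 2 or M2 replicate 1 or 2 (edgeR adjusted p of 0.108 to 0.171) and RAD51B without any of 5 libraries (0.0687 to 0.154). In M0 against control medium RAD51B alone rose and none fell, beside 6.67% of all genes that rose and 5.05% that fell. At an unadjusted p under 0.05 in edgeR 4 members were higher and 1 lower in M0 medium, and DESeq2 called 0 lower. RAD51B had 15.2, 15 and 16.6 CPM in M0 medium, against 12.8, 10.7 and 13 CPM in control medium (0.36 ± 0.09 on the log2 scale, edgeR adjusted p = 0.0199), and the call was lost without control replicate 1 or 2 or M0 replicate 1 or 3 (edgeR adjusted p of 0.0501 to 0.0765). Fold changes over all genes followed transcript length in these comparisons, with a Spearman correlation of -0.29 for M2 and -0.34 for M0 medium. With the length trend removed RAD51B kept its call in M0 medium (0.31 on the log2 scale, edgeR adjusted p = 0.0433) and lost it in M2 medium (0.26, edgeR adjusted p = 0.0976). Both comparisons use the same control libraries.

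No member differed between M2 and M0 medium in the edgeR test, beside 0% of all genes that were higher and 0.106% that were lower in M2 medium. At an unadjusted p under 0.05 in edgeR 2 members were higher and 0 lower in M2 medium, and DESeq2 also called 0. Relative to the S phase list, which was called higher in 12 of 39 genes in M2 against control medium, no member was higher than the list in that comparison and RAD50 was lower (-0.27 ± 0.08 on the log2 scale, edgeR adjusted p = 0.0227), beside 1.78% of all genes that were higher and 18.3% that were lower. At an unadjusted p under 0.05 in edgeR 0 members were higher and 5 lower, and the median gene stood at -0.12 relative to the list. The share of all genes at an unadjusted p was not counted in either of these comparisons. The call of RAD50 was lost without control replicate 1 or 3 or M2 replicate 1 or 2 (edgeR adjusted p of 0.0638 to 0.146). FANCB, the member with the lowest counts, had 4.60, 6.11 and 6.10 CPM in M2 medium, 5.11, 6.24 and 6.36 CPM in M0 medium and 4.22, 3.49 and 4.94 CPM in control medium, and passed no test among these.

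Ratios between partners within a library show how unevenly the members moved, on the scale of CPM per kilobase of transcript. The ratio of BARD1 to BRCA1 was 14.3 ± 1.78 in M1 medium, against 3.70 ± 0.133 in control medium (SD, n = 3 each). It was 7.44 ± 0.402 with IKK16, against 12.5 ± 0.710 with DMSO. The ratio of PALB2 to BRCA2 was 8.93 ± 1.31 in M1 medium, against 3.21 ± 0.124 in control medium, and 4.85 ± 0.813 with IKK16, against 7.97 ± 0.331 with DMSO. In both pairs the M1 libraries lay above all control libraries and the IKK16 libraries below all DMSO libraries. The kinase pairs behaved alike in direction. ATR to CHEK1 was 0.823 ± 0.0335 in M1 medium, against 0.234 ± 0.0283 in control medium, and 0.455 ± 0.0549 with IKK16, against 0.624 ± 0.0504 with DMSO. ATM to CHEK2 was 0.303 ± 0.0197 in M1 medium, against 0.112 ± 0.0109 in control medium, and 0.218 ± 0.0169 with IKK16, against 0.310 ± 0.0346 with DMSO. FANCL to FANCB was 17.1 ± 0.452 in M1 medium, against 6.36 ± 1.02 in control medium. Other pairs moved by less. FANCI to FANCD2 was 1.83 ± 0.174 in M1 medium, against 2.24 ± 0.116 in control medium, and RAD50 to NBN was 0.454 ± 0.0370, against 0.488 ± 0.0199, with overlapping libraries. With IKK16 FANCI to FANCD2 was 2.04 ± 0.116, against 2.01 ± 0.0809 with DMSO, with overlapping libraries, and RAD50 to NBN was 0.510 ± 0.0139, against 0.470 ± 0.0239, without overlap. An exact permutation test, two-sided, of 3 against 3 libraries cannot give a p below 0.1, which all these pairs without overlap reached, so the ratios are given as values.

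**Figure D4:**
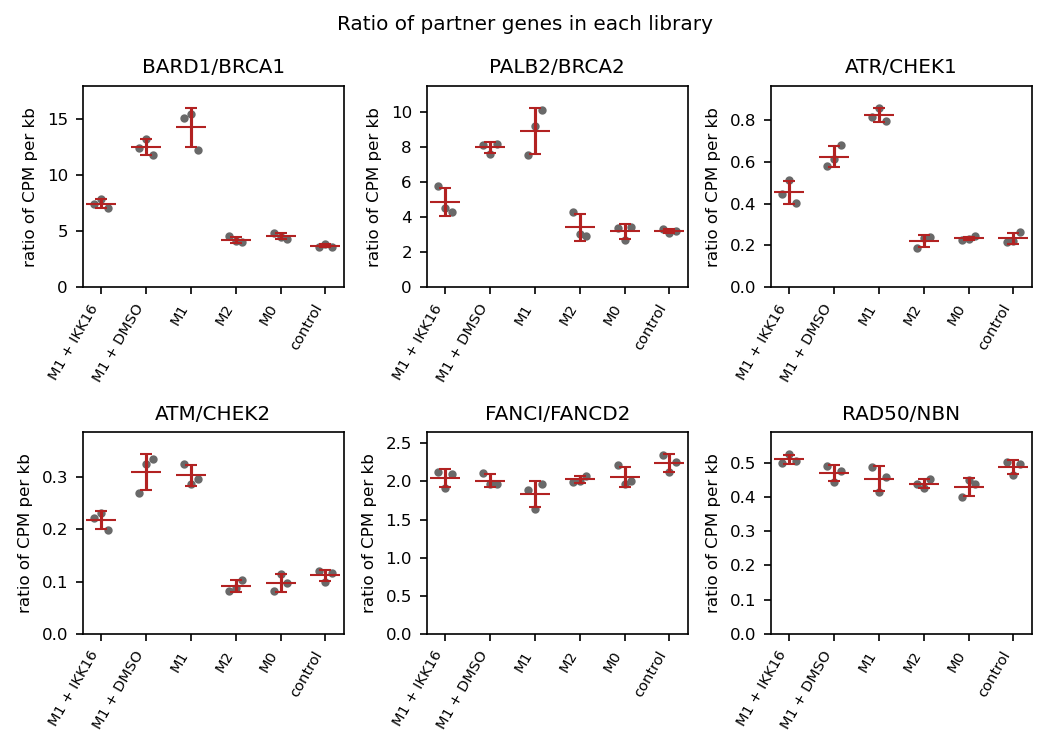
Ratio of the CPM per kilobase of 6 pairs of partner genes (y axis, from 0) in each of the 18 libraries by medium (grey points), with the mean and SD of each group of 3 in red. BARD1 to BRCA1, PALB2 to BRCA2, ATR to CHEK1 and ATM to CHEK2 are high in the 3 groups with M1 medium, lower with IKK16 than with DMSO, and low in M2, M0 and control medium, while FANCI to FANCD2 and RAD50 to NBN differ by less between the groups.

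The other 52 genes of the pathways fell in the main as well. In M1 against control medium 35 fell, 4 rose and 13 did not pass the test, beside 31.9% of all genes that fell and 32.9% that rose. Their median was -0.41 on the log2 scale. RMI2, a partner of BLM, fell by 1.73 ± 0.09 on the log2 scale, ZGRF1, a helicase of crosslink repair, by 1.57 ± 0.11, and UBE2T, the ubiquitin-conjugating enzyme of the Fanconi core, by 1.47 ± 0.07. WDR48, which activates the enzyme that removes ubiquitin from FANCD2, rose by 0.36 ± 0.08 on the log2 scale, HELQ, a helicase of crosslink repair, by 0.32 ± 0.07, and SEM1, a BRCA2-binding protein, by 0.27 ± 0.11. With IKK16 against DMSO 22 of the 52 rose and 2 fell (median 0.13), beside 14.4% of all genes that rose and 12.9% that fell. ZGRF1 (0.74 ± 0.12), RMI2 (0.73 ± 0.09) and CLSPN (0.72 ± 0.12), an adaptor of CHEK1, rose most on the log2 scale. RNF168 (-0.19 ± 0.07), a ubiquitin ligase at breaks, and FAAP100 (-0.17 ± 0.06), a core subunit, fell.

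Of 20 genes of the competing end joining routes, 9 fell and 5 rose in M1 against control medium, beside 31.9% of all genes that fell and 32.9% that rose, with a median of -0.13 on the log2 scale. POLQ, the polymerase of microhomology end joining, fell by 1.49 ± 0.11 on the log2 scale, PARP1, a sensor of DNA nicks, by 1.19 ± 0.06 and PAXX, a scaffold of end joining, by 0.75 ± 0.09. LIG4, the ligase of classical end joining, had 17.8 ± 0.606 CPM in M1 medium, against 9.86 ± 1.22 CPM in control medium (SD, n = 3 each) and rose by 0.85 ± 0.08 on the log2 scale. SHLD1, a shieldin subunit that limits resection, rose by 0.62 ± 0.17 and XRCC1, the scaffold of nick repair, by 0.42 ± 0.07. The libraries of SHLD1 overlapped, with 6.41 ± 1.61 CPM in M1 medium, against 4.21 ± 1.29 CPM in control medium (SD, n = 3 each). With IKK16 7 of the 20 rose and none fell (median 0.13), beside 14.4% of all genes that rose and 12.9% that fell. POLQ (0.65 ± 0.11), XRCC4 (0.32 ± 0.10), the partner of LIG4, and DCLRE1C (0.23 ± 0.07), a nuclease of end joining, rose most on the log2 scale.

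Of 20 E2F and DREAM regulators of periodic transcription, 12 fell and 5 rose in M1 against control medium (median -0.58 on the log2 scale). Among all genes 31.9% fell and 32.9% rose, so the share of these regulators that rose was below that of all genes. E2F7 (-2.47 ± 0.14), E2F8 (-2.28 ± 0.13) and FOXM1 (-2.17 ± 0.06) fell furthest on the log2 scale, the first pair being repressors that are themselves periodic and FOXM1 the activator of mitotic genes. CDKN1A, the inhibitor of cyclin-dependent kinases also called p21, had 585 ± 10.9 CPM in M1 medium, against 199 ± 11.5 CPM in control medium (SD, n = 3 each) and rose by 1.56 ± 0.05 on the log2 scale. E2F3 (0.53 ± 0.07) and LIN37 (0.44 ± 0.09), a DREAM subunit, rose by less. With IKK16 12 of the 20 rose and CDKN1A alone fell (-0.30 ± 0.05), beside 14.4% of all genes that rose and 12.9% that fell. E2F7 (0.98 ± 0.15), E2F2 (0.78 ± 0.12) and FOXM1 (0.77 ± 0.06) rose most. The part of any of these in the changes of the members was not tested.

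On the lists that stand for the cell cycle, CDT1, which licenses replication origins, fell by 2.11 ± 0.08 on the log2 scale in M1 medium, TK1, a thymidine kinase, by 2.03 ± 0.07 and RRM2, a subunit of ribonucleotide reductase, by 2.02 ± 0.06. KIF20A (-2.47 ± 0.07), a motor of cytokinesis, ESPL1 (-2.30 ± 0.07), the protease that separates chromatids, and PLK1 (-2.25 ± 0.06), a mitotic kinase, fell furthest on the G2/M list. With IKK16 RRM2 (0.95 ± 0.06), MCM10 (0.85 ± 0.09) and POLE2 (0.84 ± 0.12) rose most on the S phase list, and HMMR (1.18 ± 0.08), DLGAP5 (1.17 ± 0.08) and CCNB2 (1.16 ± 0.09) on the G2/M list, on the same scale. BLM and RAD51AP1 thus lay within the range of these genes, as did the other members with large falls.

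For FANCA the value depends on the transcript. The long transcripts that stood for the gene fell by 1.08 on the log2 scale in M1 medium, with no call with IKK16 (0.19 ± 0.07, edgeR adjusted p = 0.0518). Over all transcripts of the gene, 23.64% of the exonic bases of FANCA are shared with ZNF276, a zinc finger gene on the other strand, which fell by 0.40 on the log2 scale (edgeR adjusted p = 0.000242). A shorter transcript of FANCA fell by 1.72 ± 0.14 (SE) on the log2 scale in M1 medium (edgeR adjusted p = 2.53e-10) and rose by 0.65 ± 0.15 with IKK16 (edgeR adjusted p = 0.0023). That transcript ends before the exons shared with ZNF276, and it was examined after its values were seen. With it in place of the long transcript 22 members rose with IKK16. The values of FANCA relative to the S phase list are those of the long transcript. The shorter one was not tested against that list, whose median was -1.27 in M1 medium and 0.48 with IKK16. Both its fall and its rise were larger than these medians, so the relative calls of FANCA hold for the long transcript only. The use of strand in the counts is not given in the sources used here, so reads of FANCA and ZNF276 cannot be told apart where they overlap. This limit falls on the long transcripts, whose values are used in all counts of members unless stated.

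Other members share sequence with a neighbour or copy, and their values carry the same limit. XRCC3 shares 76.68% of its exonic bases with KLC1 on the other strand, which stood at -0.03 ± 0.05 (SE) on the log2 scale in M1 against control medium and was not called. RAD54L shares 25.09% with LRRC41, at -0.04 ± 0.04 on the same scale and not called, and MSH6 shares 16.24% with FBXO11, at 0.20 ± 0.07. FANCL shares 18.74% with VRK2, which rose by 0.29 ± 0.07 on the log2 scale. RAD54B shares 59.08% with FSBP on its own strand, which fell by 1.51 ± 0.16 on the log2 scale (edgeR adjusted p = 1.06e-08), close to the fall of RAD54B. FANCI shares 5.90% with POLG on the other strand, which fell by 0.41 ± 0.05, and CHEK2 shares 6.70% with HSCB on the other strand, which rose by 0.47 ± 0.09 on the log2 scale. RAD51D shares 8.01% with RAD51L3-RFFL on its own strand, which had 67.2 CPM in M1 medium and rose by 0.12 ± 0.05 on the log2 scale (edgeR adjusted p = 0.0357). FANCF shares 11.28% with GAS2 on the other strand, at -0.05 ± 0.30 on the same scale and not called. In addition, RAD50 shares 79.66% with another gene model on its own strand. PMS2, CHEK2, FANCD2 and BRCA1 have near-identical pseudogene copies, and ATR shares 16.39% of its exonic bases with a pseudogene on the other strand. For most members the transcripts in the table gave nearly the same values. Transcripts of a gene share reads, so this says little about whether the transcripts changed alike. Apart from FANCA, the range of the log2 fold change over transcripts in M1 against control medium exceeded 0.2 in FANCB and ATM, at 0.32 and 0.31.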

How the data were processed

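Polyadenylated RNA of 18 LNCaP libraries, in 6 groups of 3 taken from the labels, was sequenced as paired reads of 150 bases, per the labels. The deposited table gives expected counts for each RefSeq transcript, in steps of 0.5 and not normalised. Per the submitters' processing notes, Trimmomatic, BWA 0.7.17, HOMER 4.10 and the build hg38 were used. The sources used here do not give their roles, the use of strand or the handling of multi-mapped reads. Of 70507 transcripts, 69830 were named with the RefSeq gene table and 343 with GENCODE 29, and 334 had no name, held 0.0883 to 0.1087% of the counts and were left out. Each gene was read from its transcript with the highest total, since transcripts of a gene share reads, which gave 28100 genes. Counts were rounded to whole numbers. For a gene at 0 in a library the limit is 3 counts, and such limits cover counting error only.

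The test was that of edgeR 4.0.16 under R 4.3.3 (TMM scaling, filterByExpr, quasi-likelihood test on all 18 libraries with group means, Benjamini-Hochberg over 17037 genes, adjusted p under 0.05, two-sided). The common biological coefficient of variation was 0.0627. SEs were obtained by dividing log2 fold changes by the root of the F statistic. The test relative to the S phase list used the same model with the mean log CPM of the list in the offset. Replicates of a group differed by more than sampling noise (chi-square per gene of 2.64 to 20.4). The steps were tested on simulated data. The members, the lists and the split into periodic and non-periodic genes were chosen with earlier results of these data known. All members may be named. Full statistics went to the members with the largest changes in M1 medium, to those called with IKK16, M0 or M2 medium by adjusted p, and to those that differed most from the S phase list. In the other lists up to 3 called genes per direction with the largest fold change were named. Values for further members and for transcripts and neighbours of members were chosen to account for every member. Alternatives were another scaling, DESeq2 1.42.0, no filter, the longest transcript, a length correction, only the 2 groups compared, a replicate block and each library left out. Promoter windows came from a RefSeq table of GRCh38.p14, in which 32 of 35 members were matched, and only the 250 bases before the start were searched. Strand overlaps were taken from GENCODE 29.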

Additional observations from a re-analysis of the deposited data

How the results depend on the processing

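The falls of the members in M1 medium and their rises with IKK16 kept direction and stayed within 1.5 times the counts given, under another scaling, DESeq2, no filter, the longest transcript, the length correction, only the 2 groups compared, the replicate block, the shorter FANCA transcript (added after seeing the data) and each library left out. The longest transcript is a weak alternative, since it was the one already used for 21378 of 28100 genes. Transcripts of a gene also share reads. With a library left out, 26 to 29 members fell and 2 to 4 rose in M1 medium, and 17 to 23 rose with IKK16. The small counts moved. The 1 member higher in M0 medium became 2 without the filter, 3 with the length trend removed and 0 with only the 2 groups. The 2 members higher in M2 medium became 0 with the replicate block, 1 with the longest transcript and 0 with only the 2 groups. The 3 members higher with DMSO became 5 with the length trend removed and 5 with DESeq2. Leaving out 1 library gave 0 to 2 members higher and 0 to 1 lower in M0 medium, 0 to 2 higher and 0 to 1 lower in M2 medium, 0 to 3 higher with DMSO, and 1 to 3 higher in M1 medium with IKK16 against control medium.

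Relative to the S phase list, leaving out 1 library gave 3 to 6 members higher with IKK16 and 0 to 3 lower in M2 medium, where 2 were lower without the filter. With the G2/M list in its place, 33 members were higher and 0 lower in M1 medium (21 and 8 with the S phase list), and 0 were higher and 31 lower with IKK16 (6 and 17). Signs turned with that list for BRIP1 (0.22), CHEK1 (0.43), EXO1 (0.40), FANCG (0.45), FANCI (0.40), RAD51AP1 (0.069) and RAD54L (0.31) in M1 medium. With IKK16 they turned for BRCA1 (-0.21), FANCD2 (-0.24), FANCI (-0.22), RAD51AP1 (-0.020) and RAD54L (-0.24), since the G2/M list moved further than the S phase list in both comparisons. The share of all genes called moved too: with only the 2 groups compared, 516 genes rose and 274 fell in M0 medium (1136 and 860), 146 rose and 54 fell in M2 medium (899 and 595), and 877 rose and 693 fell with DMSO (380 and 346). DESeq2 called 760 genes higher with DMSO, and 3 higher and 44 lower in M2 against M0 medium (0 and 18). Without control replicate 1, 24 genes rose and 6 fell in M0 medium, and 110 rose and 62 fell in M2 medium. Without M0 replicate 1, 55 rose in M0 medium, and without M2 replicate 1, 87 rose in M2 medium. Without M1 replicate 2, 27 rose with DMSO. The cause of the other moves was not tested.

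No pairing of libraries with equal replicate numbers was seen. The correlations of their deviations from the group means ran from -0.11 to 0.11. Of 18 libraries, 8 correlated best with their own number out of 3 numbers. That count was not tested, and a weak pairing remains possible. With the replicate block 26 members fell and 3 rose in M1 medium, and 22 rose with IKK16. FANCB, with 1.08 to 6.36 CPM per library, is the member whose depth limits its value most.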
